A study of Mus musculus with 12 samples.

Results

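The comparison set 393P cells that carry the Zeb1 form labelled mimetic against 393P cells that carry a GFP vector. Its members are 3 mimetic and 3 vector libraries, 6 of the 12 libraries of the series, taken by their labels, and every gene of the count table. The table lists 12208 genes. Of these, 12027 passed the low-count filter and were tested, and 181 did not. 393P is a mouse lung adenocarcinoma line that the labels call epithelial and non-metastatic. RNA was measured by 3′ tag sequencing, in which a transcript gives tags from its 3′ end whatever its length, and levels of different genes therefore need no correction for length. Levels are CPM, counts scaled to a common library size with edgeR, and a gene "rose" or "fell" only where edgeR's quasi-likelihood test gave a Benjamini-Hochberg adjusted p under 0.05.

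All 4 lines of the series were grown in RPMI with serum and had no treatment. The vector line (genotype GFP_Vector) carries no introduced Zeb1 by its label, the mimetic line (Zeb1_mimetic) carries the form compared here, and the lines Zeb1_WT and Zeb1_deficient are set beside them. From the series title, mimetic and deficient are read as acetylation-mimetic and acetylation-deficient Zeb1, and deficient not as a loss of Zeb1. The labels do not give the amino acid changes, the promoter that drives Zeb1 or whether a line is 1 clone, and no mutation was read here. Each form is 1 line, so the Zeb1 form and other differences between lines cannot be told apart. The 3 libraries of a line are labelled biological replicates, while the design text speaks of 2 replicates, and which number holds is unknown. No label says that the libraries came from separate cultures, and the spread behind the p-values may be technical.

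The transcription factor Zeb1 binds E-box sequences through its zinc fingers and represses epithelial genes with the help of corepressors, among them CtBP and the NuRD complex. It drives the epithelial-mesenchymal transition, in which cells lose junctions and apical-basal polarity and gain motility and matrix genes. Acetylation of a lysine removes its positive charge, and a mimetic mutant carries a residue meant to stand for the acetylated state.

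Vector libraries held 33.3 to 39 M counts and mimetic libraries 24.4 to 27.5 M. No listed gene had a count under 1 in a library, so genes with 0 counts in a library are not analysed here. Mitochondrially encoded genes took 0.933% ± 0.103 in vector and 0.496% ± 0.0122 in mimetic (SD, n = 3) of all counts, 82 ribosomal protein genes 5.80% ± 0.307 and 7.17% ± 0.0724, and 5 gene models with satellite repeats 0.501% ± 0.0971 and 0.00552% ± 0.00371. Each share separated the lines without overlap (exact permutation test, two-sided, p = 0.1, the smallest that 3 against 3 allows). Their part in the gene results was not tested. A fit without these genes, chosen after seeing the data, gave 3389 genes higher and 3706 lower against 3438 and 3720 with them. That fit tested 11928 genes, not 12027. It only leaves these genes out, so it cannot show whether the difference in composition bears on the other genes.

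Zeb1 RNA (chromosome 18, 5591860 to 5775467) stood at 30.1, 34.4 and 29.3 CPM in the vector libraries and 214, 234 and 236 in the mimetic libraries. Every mimetic library was above every vector library, and the level was 7.31-fold higher (log2 fold change 2.87, SE 0.058, adjusted p = 3.4e-19). The WT line had 244 CPM and the deficient line 484. The count mixes the resident transcript with any introduced transcript whose 3′ end maps to the gene, and it measures RNA, not protein. Most genes of chromosome 18 were lower in mimetic, as given below.

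In all, 7158 of 12027 genes (59.5%) were called. Of these, 3438 rose (28.6%) and 3720 fell (30.9%), and with scaling by library size only 4334 rose and 3004 fell, so that the share of calls that were rises went from 48% to 59.1%. That scaling moved the median of all genes from -0.004 to 0.069 on the log2 scale. Most changes were small: 4842 called genes differed by less than 1.5-fold, and the median size of a called change was 0.41 on the log2 scale. A change of at least 2-fold was seen in 658 rises (5.47% of tested genes) and 468 falls (3.89%), and in 305 and 300 with a filter of 5 CPM in 3 libraries. At 8-fold or more 109 genes rose and 29 fell, and most of these rises were at low levels. The replicates of the 2 lines did not overlap in 7523 genes (62.6%). Because so many genes were called, the counts of each gene group below are read against 28.6% and 30.9%.

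**Figure D1:**
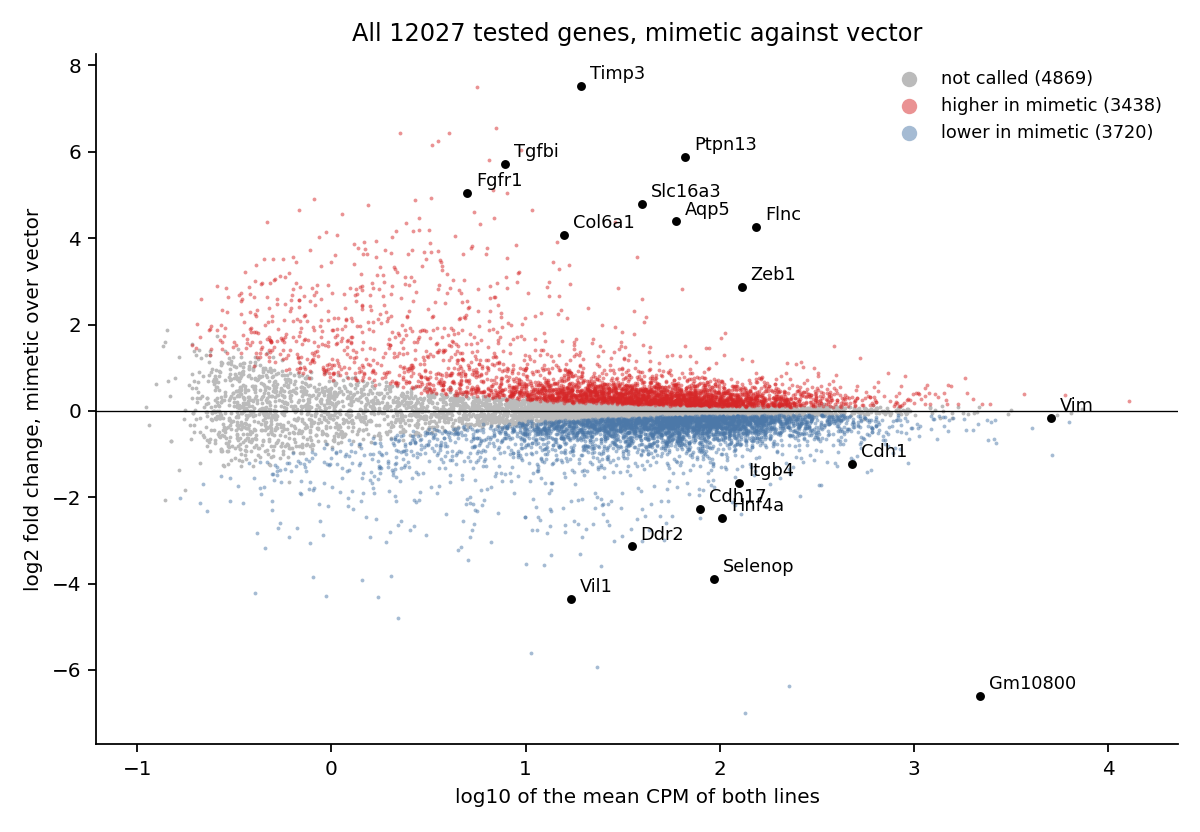
Each point is 1 of 12027 tested genes; the horizontal axis is the log10 of the mean CPM of both lines and the vertical axis the fitted log2 fold change of mimetic over vector. Red points rose (3438), blue fell (3720) and grey were not called (4869); the rises of 8-fold or more (109) outnumber the falls (29) and lie mostly at low CPM, and the gene model Gm10800, which holds satellite repeats, lies apart at the lower right.

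The promoters of the genes with the largest changes are shown first, since Zeb1 acts through short E-box letters in DNA. These are the 250 bases before the start given by RefSeq (GRCm38.p6), 5′ to 3′ on the gene's strand, for the largest falls and rises whose RefSeq start lies within 50 bases of the annotated gene start. Capitals mark the E-box letters searched, CAGGTG and CAGGTA, which differ only in the last base, on either strand.
Vil1 (fell, chr1:74409134-74409383, plus strand): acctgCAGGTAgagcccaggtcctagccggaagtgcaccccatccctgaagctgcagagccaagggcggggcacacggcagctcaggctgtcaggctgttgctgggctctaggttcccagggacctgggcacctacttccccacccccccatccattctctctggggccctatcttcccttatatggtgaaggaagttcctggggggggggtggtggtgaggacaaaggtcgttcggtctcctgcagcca
Calml4 (fell, chr9:62857854-62858103, plus strand): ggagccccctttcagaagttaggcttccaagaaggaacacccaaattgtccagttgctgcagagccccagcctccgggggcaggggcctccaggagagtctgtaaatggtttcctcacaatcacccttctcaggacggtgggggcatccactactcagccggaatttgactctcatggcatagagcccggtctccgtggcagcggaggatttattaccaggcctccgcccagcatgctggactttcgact
Bcat1 (fell, chr6:145076158-145076407, minus strand): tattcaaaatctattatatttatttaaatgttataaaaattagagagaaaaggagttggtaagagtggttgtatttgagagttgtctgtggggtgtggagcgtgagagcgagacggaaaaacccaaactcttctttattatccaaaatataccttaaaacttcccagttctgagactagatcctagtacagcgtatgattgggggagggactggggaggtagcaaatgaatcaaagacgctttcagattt
Timp3 (rose, chr10:86300162-86300411, plus strand): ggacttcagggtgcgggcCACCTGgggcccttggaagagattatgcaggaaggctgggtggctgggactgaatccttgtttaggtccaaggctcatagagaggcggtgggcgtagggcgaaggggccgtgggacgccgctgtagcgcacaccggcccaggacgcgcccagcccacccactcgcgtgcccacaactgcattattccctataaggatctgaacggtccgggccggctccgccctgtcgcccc
Ptpn13 (rose, chr5:103424942-103425191, plus strand): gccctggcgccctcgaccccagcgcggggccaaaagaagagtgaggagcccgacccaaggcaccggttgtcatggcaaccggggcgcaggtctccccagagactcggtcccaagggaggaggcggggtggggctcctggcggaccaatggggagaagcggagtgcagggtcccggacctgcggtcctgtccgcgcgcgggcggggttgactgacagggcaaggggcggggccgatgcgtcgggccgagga
The Vil1 window holds CAGGTA once, at base -245 from the start, and the Timp3 window holds CAGGTG once, on the other strand, at base -232. Neither motif was found in the Calml4, Bcat1 and Ptpn13 windows, and Cdh1 and Thbd had no matching window. Of all 11996 windows of this length for tested genes, 15.6% held CAGGTG and 7.24% held CAGGTA. For genes changed at least 2-fold, CAGGTG was in 19.3% of the windows of rises and 27.1% of those of falls. CAGGTA was in 6.66% and 8.8%. Windows were matched for only 78.1% of all tested genes, 73.4% of these rises and 70.1% of these falls. The shares thus leave out part of the genes, and their difference was not tested. The 5 printed windows stand for no gene group.

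Genes of a gut-like epithelial programme fell together. Villin (Vil1, an actin bundler of brush-border microvilli, chromosome 1, 74409376 to 74435559) stood at 30.9, 32.2 and 35.2 CPM in the vector libraries and 1.12, 2.13 and 1.52 in the mimetic libraries. The 2 sets of libraries lay more than 10-fold apart, and the level was 20.5-fold lower (log2 fold change -4.36, SE 0.17, adjusted p = 1.78e-14). The nuclear receptor Hnf4a, a regulator of gut, liver and kidney epithelium (chromosome 2, 163506808 to 163572910), stood at 171, 181 and 172 CPM in the vector libraries and 31.1, 31.2 and 31.2 in the mimetic libraries. The libraries of each line were close together, and Hnf4a was 5.59-fold lower (log2 fold change -2.48, SE 0.061, adjusted p = 8.54e-18). The intestinal cadherin Cdh17 fell from 132 ± 0.98 to 27.2 ± 2.1 CPM, the galectins Lgals4 and Lgals2 from 135 ± 7.0 to 24.2 ± 1.4 CPM and from 90.9 ± 5.2 to 14.98 ± 1.0 CPM, and the calmodulin-like Calml4, a part of the brush-border intermicrovillar complex, from 23.02 ± 0.49 to 1.93 ± 0.54 CPM. Of the 15 tested genes of the brush-border list, 11 fell and 2 rose, with a median log2 fold change of -1.14 against -0.004 for all genes. This and the other lists were chosen with earlier results of these data known, so such counts are no independent support. With a filter of 5 CPM in 3 libraries, 8 genes were left, all of which fell, and the median was -2.36. Here and in the lists below, this filter leaves out low genes and can keep a gene through its vector libraries alone. It is therefore no check of the falls. The mucin Muc4 fell 5.86-fold. The unconventional myosin Myo1a rose 2.32-fold and Spink4 2.99-fold, both from low levels of 0.787 and 0.535 CPM. Outside the list, the fimbrin Pls1, another microvillus bundler, fell from 46.4 ± 2.3 to 7.44 ± 0.71 CPM, and the myosin Myo15b from 34.8 ± 1.5 to 3.47 ± 0.38 CPM.

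The other lines also stood below vector for most of these genes, but to different levels. Vil1 was at 0.299 CPM in WT, 1.87 in deficient and 1.59 in mimetic, and Hnf4a at 4.19, 25.8 and 31.2. Mimetic was thus above WT for both (Vil1 5.39-fold, adjusted p = 6.1e-06; Hnf4a 7.41-fold, adjusted p = 2e-16). Against deficient, Hnf4a was 1.21-fold higher in mimetic (adjusted p = 0.00247), while the difference of Vil1 was -0.23 on the log2 scale (SE 0.23, adjusted p = 0.501).

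**Figure D2:**
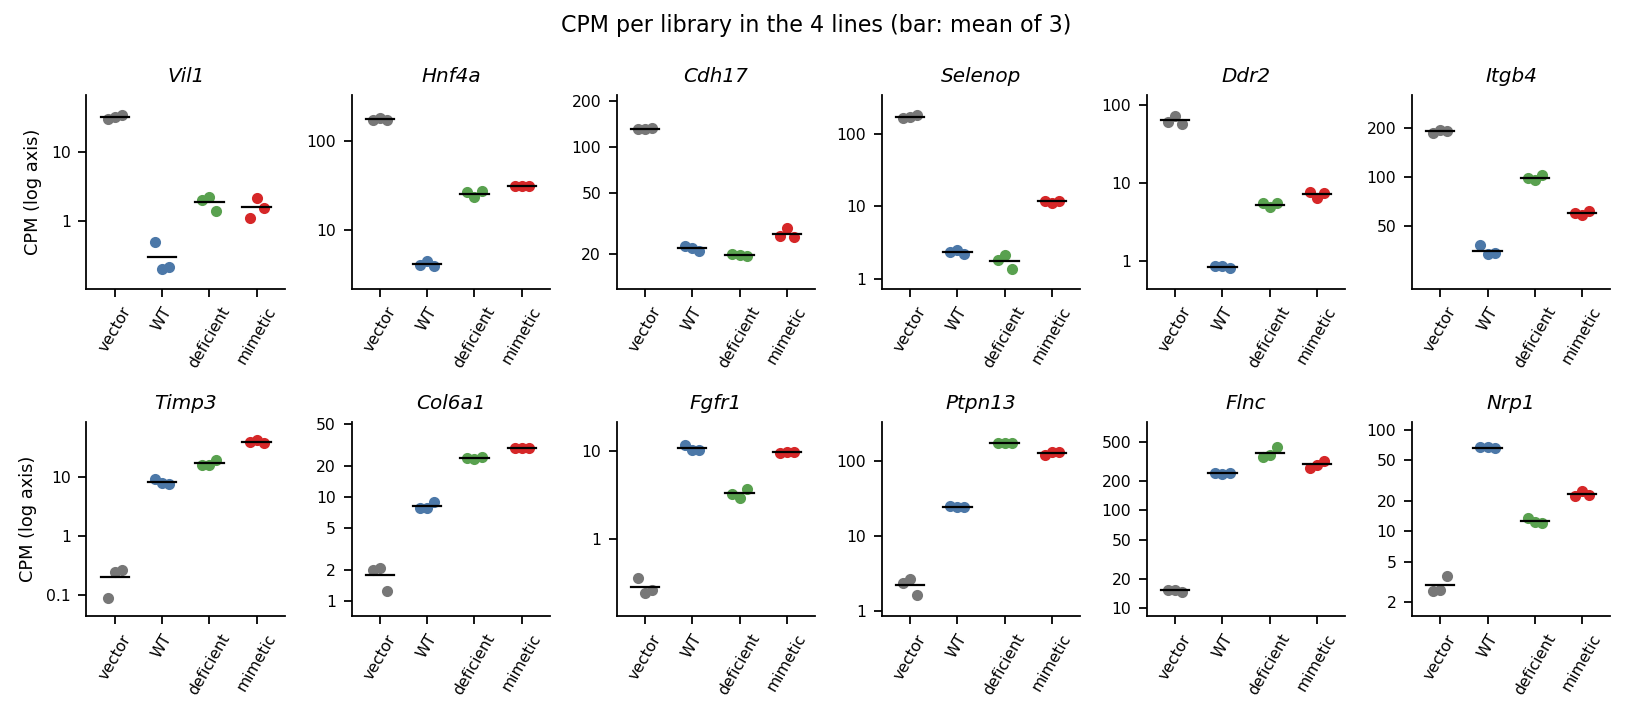
CPM on a log axis for 12 genes in each of the 4 lines, with 3 points per line for its libraries and a bar at their mean. The upper row holds genes that fell in mimetic against vector and the lower row genes that rose; for Vil1, Hnf4a and Ddr2 the WT points lie lowest, for Timp3 and Col6a1 the mimetic points lie highest.

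Genes of cell-cell junctions fell broadly, with named exceptions. Of 12 tested cadherin and adherens junction genes, 9 fell and 1 rose (median -0.52), and 2 rose with scaling by library size. None (0) rose in a fit of the 6 libraries alone or with a filter of 5 CPM in 3 libraries. Each of these settings tested 11 genes, not 12. Plakoglobin (Jup), which links cadherins to filaments, stood at 219, 216 and 226 CPM in the vector libraries and 82.1, 79.8 and 89.05 in the mimetic libraries, with no overlap, and was 2.64-fold lower (log2 fold change -1.40, SE 0.062, adjusted p = 1.07e-13). Alpha-catenin (Ctnna1) fell from 1029 ± 28 to 570.3 ± 2.8 CPM, and it lies on chromosome 18, where most genes were lower. E-cadherin (Cdh1, chromosome 8, 106603351 to 106670246) stood at 657, 690.0 and 664 CPM in the vector libraries and 263, 296 and 301 in the mimetic libraries, 2.34-fold lower. N-cadherin (Cdh2), which epithelial cells usually gain in the transition, fell too, 1.37-fold, and it also lies on chromosome 18. The immunoglobulin-like adhesion receptor Nectin1 was the exception, with 1 to 3 counts a library in vector and 6 to 20 in mimetic, a ratio of 7.96 in CPM (95% exact interval 3.33 to 23.1, counting error only).

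Tight junction genes showed the same mix. Of 16 tested, 12 fell and 2 rose (median -0.83), and 7 of the falls were at least 2-fold. The tricellular protein Marveld2 fell from 19.6 ± 1.1 to 3.53 ± 0.43 CPM, occludin (Ocln) from 9.14 ± 0.79 to 1.85 ± 0.18 CPM and the scaffold Tjp3 from 6.21 ± 0.94 to 1.96 ± 0.77 CPM. The pore-forming claudin Cldn2 stood at 296, 321 and 303 CPM in the vector libraries and 129, 137 and 132 in the mimetic libraries, 2.31-fold lower (log2 fold change -1.21, SE 0.045, adjusted p = 6.93e-15). Cingulin (Cgn), a cytoplasmic plaque protein, fell from 94.1 ± 2.0 to 46.4 ± 0.83 CPM. Claudin 12 went the other way, with 42.7, 40.4 and 41.4 CPM in the vector libraries and 100.3, 103 and 94.5 in the mimetic libraries, and was 2.40-fold higher (log2 fold change 1.26, SE 0.050, adjusted p = 1.44e-14). It lies on chromosome 5, where most genes were higher in mimetic. Cldn3 rose 1.56-fold.

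Desmosome and polarity genes also fell more often than they rose. Of 11 tested desmosome and plakin genes, 7 fell and 1 rose (median -0.53). Periplakin (Ppl), Perp and desmoplakin (Dsp) fell 1.73-fold, 1.95-fold and 1.79-fold. The plakophilin Pkp1 rose from 1.82 ± 0.38 to 6.60 ± 0.63 CPM. Of 16 tested apical-basal polarity genes, 11 fell and 2 rose (median -0.39): the atypical kinase Prkcz fell from 23.1 ± 1.9 to 8.58 ± 1.3 CPM, the Par complex subunit Pard6b from 35.1 ± 1.2 to 14.1 ± 1.2 CPM and the Crumbs-complex scaffold Patj from 61.4 ± 2.7 to 25.7 ± 1.8 CPM. The related Pard6g had 2 to 6 counts a library in vector and 50 to 60 in mimetic, a ratio of 17.4 in CPM (95% exact interval 9.71 to 34.4, counting error only). Crb3, the Crumbs subunit that Zeb1 is known to repress, stood at 2.45, 3.47 and 2.38 CPM in the vector libraries and 2.11, 2.09 and 1.45 in the mimetic libraries; it was called lower (adjusted p = 0.0340), but not without mimetic replicate 3 (adjusted p = 0.166) or vector replicate 2 (adjusted p = 0.197). Genes on the opposite strand overlap Crb3, and the strand of counting is not stated.

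Among intermediate filaments the simple-epithelium keratins fell together. Krt8, Krt18 and Krt19 were 1.68-fold, 1.58-fold and 1.57-fold lower, yet Krt8 still stood at 1982 CPM in mimetic. Of 12 tested genes, 6 fell and 2 rose (median -0.06), and 4 rose with scaling by library size or with the replicate block. Vimentin (Vim), the main mesenchymal filament, stood at 5289.8, 5023 and 5756 CPM in the vector libraries and 4724, 4753 and 4816 in the mimetic libraries. It was slightly lower in mimetic (-0.17 on the log2 scale, adjusted p = 0.00320), a call lost when libraries were scaled by size only (adjusted p = 0.0664).

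Genes of attachment to the basement membrane mostly fell. The integrin of Itga6 and Itgb4 is the receptor of hemidesmosomes for laminins, among whose chains is Lamb3. Itgb4 (chromosome 11, 115974709 to 116008412) stood at 187, 194 and 192 CPM in the vector libraries and 60.2, 58.7 and 61.9 in the mimetic libraries, 3.17-fold lower (log2 fold change -1.67, SE 0.051, adjusted p = 4.17e-16). Lamb3 stood at 144, 152 and 159.7 CPM in the vector libraries and 58.3, 64.5 and 61.6 in the mimetic libraries, 2.47-fold lower (log2 fold change -1.31, SE 0.059, adjusted p = 1.25e-13), and no library overlapped between lines for either gene. The collagen-binding integrin Itga2 fell 2.57-fold, Lama5 1.95-fold and Itga6 1.42-fold. Of 20 tested integrin and laminin genes, 12 fell and 4 rose (median -0.39), and 2 rose with the filter of 5 CPM. The risen genes were the fibronectin- and vitronectin-binding integrins Itga5 (1.64-fold), Itgav (1.16-fold), Itgb6 (2.27-fold) and Itgb8 (2.94-fold).

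Matrix genes rose more often than they fell. Of 28 tested matrix glycoproteins, 16 rose, 10 of them at least 2-fold, and 6 fell, none (0) of them by 2-fold (median 0.48). The TGF-beta-induced protein Tgfbi stood at 0.302, 0.154 and 0.396 CPM in the vector libraries and 14.7, 15.9 and 15.8 in the mimetic libraries, 52.6-fold higher (log2 fold change 5.72, SE 0.18, adjusted p = 4.77e-16). Every vector library was under 1 CPM and every mimetic library above 10. Tenascin C (Tnc) rose from 0.325 ± 0.096 to 6.06 ± 1.00 CPM, thrombospondin 2 (Thbs2) from 0.314 ± 0.25 to 2.004 ± 0.60 CPM, nidogen (Nid1) from 12.1 ± 2.2 to 59.9 ± 3.5 CPM and Cyr61, an integrin ligand, from 47.2 ± 2.1 to 164 ± 6.6 CPM. The growth factor binding protein Igfbp3 rose 2.02-fold. Osteopontin (Spp1) fell 1.56-fold, and fibronectin (Fn1) rose 1.58-fold.

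Collagen genes moved both ways, and the rises were the larger. Of 27 tested collagen and crosslinking genes, 13 rose and 8 fell (median 0.16). The collagen VI chains rose most: Col6a1 (chromosome 10, 76708792 to 76726168) stood at 1.996, 2.09 and 1.27 CPM in the vector libraries and 29.8, 29.6 and 29.8 in the mimetic libraries, 16.8-fold higher (log2 fold change 4.07, SE 0.13, adjusted p = 4.24e-16), and Col6a2 rose from 0.496 ± 0.16 to 8.16 ± 1.3 CPM. The fibril-regulating chain Col5a1 rose from 48.6 ± 2.9 to 155 ± 7.8 CPM. The basement-membrane chains Col4a2 and Col4a1 fell 1.58-fold and 1.48-fold, and they overlap on opposite strands at their 5′ ends. The fibrillar chain Col1a1 was low and not called (adjusted p = 0.993), with 1.63 CPM in vector and 1.63 in mimetic.

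Proteases and their inhibitors included Timp3, a rise of over 100-fold. Timp3, a matrix-bound inhibitor of metalloproteinases (chromosome 10, 86300372 to 86349506), had 3 to 10 counts a library in vector and 957 to 1088 in mimetic, a ratio of 189 in CPM (95% exact interval 123 to 306, counting error only). It lies within Syn3 on the opposite strand. The ADAM protease Adam12 rose from 1.63 ± 0.54 to 12.6 ± 1.6 CPM and Adamts1 6.38-fold, while Adam8 fell from 38.1 ± 2.0 to 6.26 ± 0.69 CPM and the membrane metalloproteinase Mmp15 4.18-fold. Of 19 tested metalloproteinase and TIMP genes, 9 rose and 4 fell (2 with the filter of 5 CPM). The granzyme B inhibitor Serpinb9 rose from 11.1 ± 1.4 to 32.98 ± 1.5 CPM. The matriptase inhibitors diverged, with Spint2 3.41-fold lower and Spint1 6.001-fold higher. Of 12 tested genes of that list, 6 rose and 3 fell, and the median of 0.49 was 0.23 with the filter of 5 CPM.

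Growth factor receptors moved both ways, some by large factors. The hepatocyte growth factor receptor Met (chromosome 6, 17463800 to 17573980) stood at 827, 872 and 805 CPM in the vector libraries and 308, 314 and 316 in the mimetic libraries, 2.67-fold lower (log2 fold change -1.42, SE 0.042, adjusted p = 2.27e-16). The neuregulin receptor Erbb3 stood at 99.7, 108 and 99.8 CPM in the vector libraries and 33.2, 33.3 and 30.4 in the mimetic libraries, 3.18-fold lower (log2 fold change -1.67, SE 0.064, adjusted p = 9.13e-15), and the collagen receptor Ddr2 at 60.8, 71.6 and 57.4 CPM in the vector libraries and 7.58, 6.50 and 7.47 in the mimetic libraries, 8.80-fold lower (log2 fold change -3.14, SE 0.097, adjusted p = 4.24e-16). In all of these, each mimetic library lay below each vector library. Fgfr1, a receptor for fibroblast growth factors, stood at 0.363, 0.246 and 0.264 CPM in the vector libraries and 9.45, 9.86 and 9.92 in the mimetic libraries, 33.1-fold higher (log2 fold change 5.05, SE 0.19, adjusted p = 7.53e-15). Its ligand Fgf2 rose 3.71-fold, Fgfr3 3.09-fold, Ephb3 7.13-fold and the VEGF receptor Kdr 5.09-fold. Egfr and Erbb2 fell 1.36-fold and 1.25-fold. Of 37 tested receptor tyrosine kinases and ligands, 17 rose and 13 fell, 8 and 3 of them by at least 2-fold.

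Phosphatases that act on tyrosine or on MAP kinases were led by Ptpn13, a large FERM-domain phosphatase (chromosome 5, 103425192 to 103598303). It stood at 2.42, 2.68 and 1.64 CPM in the vector libraries and 123, 134 and 134 in the mimetic libraries, 58.8-fold higher (log2 fold change 5.88, SE 0.091, adjusted p = 1.42e-20), and lies on chromosome 5, where the median change was 0.28. The MAPK phosphatase Dusp1 rose from 1.91 ± 0.31 to 11.8 ± 0.42 CPM, Ptprm 2.28-fold and Ptpn22 2.21-fold. Of 34 tested, 13 rose and 5 fell, and 8 fell without vector replicate 3.

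Genes of TGF-beta and BMP signalling rose more often than they fell. Of 30 tested ligands, receptors and SMADs, 14 rose and 6 fell (median 0.21, but 0.12 without mimetic replicate 1 or with the filter of 5 CPM). The ligand Bmp7 stood at 11.1, 8.36 and 10.3 CPM in the vector libraries and 37.9, 38.8 and 41.97 in the mimetic libraries, 3.98-fold higher (log2 fold change 1.99, SE 0.097, adjusted p = 4.06e-13), and the receptors Tgfbr1 and Bmpr1a rose from 59.1 ± 2.2 to 117 ± 3.2 CPM and from 136 ± 8.2 to 203 ± 7.7 CPM. Tgfb2 rose 3.52-fold, whereas Tgfb1 fell 1.37-fold and the coreceptor Tgfbr3 2.10-fold. Of 14 tested immediate response genes, 8 rose and 2 fell (median 0.35). The helix-loop-helix inhibitors Id2, Id3 and Id1 rose 2.59-fold, 1.93-fold and 1.37-fold. The BMP target Atoh8 rose from 16.4 ± 0.30 to 44.5 ± 1.6 CPM, and Bhlhe40 fell 1.56-fold.

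WNT ligands and receptors moved both ways. The canonical ligand Wnt7b stood at 137, 135 and 155 CPM in the vector libraries and 83.6, 81.1 and 85.1 in the mimetic libraries, 1.71-fold lower (log2 fold change -0.77, SE 0.055, adjusted p = 1.72e-10), and the receptor Fzd5 fell from 142 ± 12 to 85.9 ± 3.4 CPM. The receptor-removing ligase Rnf43 fell 2.70-fold. The ligands Wnt5a and Wnt10b rose from 0.380 ± 0.069 to 3.84 ± 0.71 CPM and from 0.548 ± 0.13 to 4.22 ± 0.19 CPM, and Ror1, a receptor for Wnt5a, had 1 to 8 counts a library in vector and 61 to 93 in mimetic, a ratio of 28.1 in CPM (95% exact interval 15.4 to 57). Of 26 tested, 14 rose and 6 fell, and 9 rose with a filter of 5 CPM in 3 libraries, which leaves out the low genes. In the Notch pathway the ligands Jag1 and Jag2 fell from 174 ± 0.45 to 101 ± 4.8 CPM and from 40.8 ± 4.7 to 9.07 ± 0.56 CPM. Of 15 tested, 6 fell and 2 rose, but 3 fell with scaling by library size or without vector replicate 1, and 2 with the filter of 5 CPM.

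Adhesion and guidance genes of the nervous system fell and rose in like numbers, 14 and 13 of 41. Among all tested genes, 30.9% fell and 28.6% rose. Alcam fell from 222 ± 4.8 to 79.9 ± 4.0 CPM and Ncam1 from 58.97 ± 2.3 to 17.03 ± 2.1 CPM, while the semaphorin receptor Nrp1 rose from 2.94 ± 0.58 to 23.5 ± 1.3 CPM. In the WT line Nrp1 was at 67.01 CPM, 2.85-fold above mimetic (adjusted p = 8.53e-12).

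Inflammatory and interferon genes fell more often than they rose. Of 27 tested cytokine, chemokine and NF-kB genes, 13 fell, 7 of them at least 2-fold, and 6 rose (3 with the filter of 5 CPM). The interleukin 1 receptor Il1r1 stood at 179.9, 183 and 175 CPM in the vector libraries and 62.05, 60.7 and 62.2 in the mimetic libraries, 2.91-fold lower (log2 fold change -1.54, SE 0.045, adjusted p = 1.54e-16). Csf2, the cytokine GM-CSF, stood at 21.5, 22.8 and 25.1 CPM in the vector libraries and 3.99, 3.70 and 3.33 in the mimetic libraries, 6.31-fold lower (log2 fold change -2.66, SE 0.11, adjusted p = 3.84e-14), and the chemokine Ccl20 had 23 to 47 counts a library in vector and 3 to 4 in mimetic, a ratio of 0.130 (95% exact interval 0.0632 to 0.243). The TWEAK receptor Tnfrsf12a rose from 157 ± 12 to 336 ± 7.1 CPM, and Il33 rose 3.52-fold. Cxcl3 had 1 to 6 counts a library in vector and 25 to 30 in mimetic, a ratio of 11.9 (5.98 to 27). Of 25 tested interferon and antigen presentation genes, 11 fell and 3 rose (median -0.30, and -0.63 with the filter of 5 CPM). The antiviral membrane proteins Ifitm1, Ifitm3 and Ifitm2 fell 6.28-fold, 2.29-fold and 1.62-fold, and they lie on chromosome 7, where the median change was -0.17.

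Acute phase and metal-handling genes included a large fall. The selenium carrier Selenop stood at 168, 175 and 183 CPM in the vector libraries and 12.04, 11.2 and 12.01 in the mimetic libraries, 14.9-fold lower (log2 fold change -3.90, SE 0.075, adjusted p = 2.63e-19). In WT and deficient it was at 2.32 and 1.78 CPM, so mimetic was above either (5.04-fold above WT and 6.58-fold above deficient, adjusted p = 7.55e-13 and 2.84e-13). Clusterin (Clu), metallothionein Mt1 and complement C3 fell 1.69-fold, 2.01-fold and 2.46-fold, and Itih2 rose 3.28-fold. Of 13 tested, 6 fell and 4 rose; with the filter of 5 CPM, 3 of 7 fell and the median turned from -0.55 to 0.13.

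Sterol synthesis genes fell with few exceptions. Of 28 tested genes, 24 fell, 8 of them at least 2-fold, and 2 rose (median -0.67). With the filter of 5 CPM, 26 genes were tested, of which 24 fell and none (0) rose. The epoxidase Sqle stood at 219, 220.4 and 230.1 CPM in the vector libraries and 141, 141 and 143 in the mimetic libraries. The libraries of the 2 lines did not overlap, and Sqle was 1.57-fold lower (log2 fold change -0.65, SE 0.039, adjusted p = 1.24e-11). The falls included steps early and late in the route, from Mvd and Fdps (2.05-fold and 2.26-fold) through Tm7sf2 and Nsdhl (2.03-fold and 1.71-fold) to Dhcr7 (1.75-fold), and the regulator Srebf2 fell 1.61-fold. The exporter Abca1 had 1 to 7 counts a library in vector and 17 to 20 in mimetic, a ratio of 6.46 in CPM (95% exact interval 3.34 to 13.7).

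Fatty acid genes also fell for the most part. Of 23 tested, 17 fell and 3 rose (median -0.36). The desaturases Scd1, Scd2, Fads2 and Fads1 were 1.75-fold, 1.61-fold, 2.11-fold and 1.52-fold lower. Scd2 stood at 2920.0, 3011 and 2937 CPM in the vector libraries and 1821, 1823 and 1872 in the mimetic libraries, against 2674 in WT and 2571 in deficient, and mimetic was below both (adjusted p = 7.29e-10 and 7.48e-09). The phosphatidate phosphatase Lpin1 fell from 28.4 ± 1.9 to 10.8 ± 2.0 CPM. The fatty acid carrier Fabp5, which is in no list, rose from 2.62 ± 0.34 to 55.1 ± 3.3 CPM.

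Most glycolytic genes fell slightly, while a lactate exporter rose. Of 34 tested glycolysis and hypoxia genes, 21 fell and 6 rose (median -0.30), though 1 of the falls reached 2-fold, the aldolase Aldoc, from 51.3 ± 4.1 to 10.7 ± 1.4 CPM. Slc16a3, which exports lactate (chromosome 11, 120948480 to 120960868), stood at 2.72, 3.14 and 2.43 CPM in the vector libraries and 81.3, 72.4 and 76.9 in the mimetic libraries, 27.9-fold higher (log2 fold change 4.80, SE 0.080, adjusted p = 2.84e-20). Slc16a1, the more abundant lactate transporter in vector, fell from 407 ± 13 to 253 ± 2.5 CPM. Pfkm fell 1.75-fold and carbonic anhydrase Car12 rose 3.65-fold.

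Stress genes did not move as a block. Of all tested genes, 30.9% fell and 28.6% rose, and the counts here are read beside these shares. Of 34 tested genes of the unfolded protein and integrated stress responses, 14 fell and 11 rose. The asparagine synthetase Asns, a target of Atf4, stood at 1263, 1298 and 1359.6 CPM in the vector libraries and 568, 588 and 549 in the mimetic libraries, 2.30-fold lower (log2 fold change -1.20, SE 0.041, adjusted p = 2.01e-15), while the chaperone Hspa5 and the factor Ddit3 rose from 689 ± 12 to 1032 ± 37 CPM and from 20.2 ± 2.3 to 37.1 ± 2.1 CPM. Heat shock genes rose in 9 and fell in 5 of 27, with Hspa1b 3.30-fold higher. NRF2 target and glutathione genes fell in 16 and rose in 10 of 38; G6pdx fell 1.55-fold and Gpx4, which reduces lipid peroxides, rose 1.41-fold. The catabolic aminotransferase Bcat1 was among the largest falls, from 18.5 ± 0.87 to 1.59 ± 0.11 CPM.

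Respiratory chain subunits are encoded in the nucleus and in mitochondrial DNA. Of 57 nuclear-encoded genes, 13 rose and 17 fell (20 rose with scaling by library size), none (0) by 2-fold. Among all tested genes, 28.6% rose and 30.9% fell. Of 12 mitochondrially encoded genes, 10 fell and none (0) rose (median -0.91). mt-Co1 stood at 7289, 7282 and 6246 CPM in the vector libraries and 3333, 3457 and 3401 in the mimetic libraries, and mt-Nd6, which overlaps mt-Nd5, fell from 70.5 ± 7.4 to 21.2 ± 2.7 CPM. These falls are the same measurement as the lower mitochondrial share of counts given above, and their cause was not tested.

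Actin and myosin genes moved both ways. Of 41 tested actin and myosin genes, 17 fell and 11 rose (20 with scaling by library size). The muscle filamin Flnc (chromosome 6, 29433256 to 29461883) stood at 15.5, 15.4 and 14.8 CPM in the vector libraries and 270.1, 288 and 319.5 in the mimetic libraries, 19.2-fold higher (log2 fold change 4.26, SE 0.086, adjusted p = 3.4e-19). The myosin light chain kinase Mylk stood at 191, 201 and 170.3 CPM in the vector libraries and 39.7, 44.8 and 45.7 in the mimetic libraries, 4.32-fold lower (log2 fold change -2.11, SE 0.066, adjusted p = 4.33e-16), and the non-muscle myosin Myh14 fell 4.11-fold. Cofilin 2 (Cfl2) rose from 61.03 ± 3.6 to 149 ± 5.1 CPM and Myh10 2.14-fold. The coactosin-like Cotl1, in no list, fell from 70.9 ± 4.8 to 8.79 ± 1.1 CPM. Of 43 Rab and trafficking genes, 21 fell and 7 rose (13 with scaling by library size): the apical Rab17 fell from 9.37 ± 0.93 to 1.87 ± 0.56 CPM, Rab38 from 22.6 ± 1.5 to 4.49 ± 0.29 CPM and the myosin Myo5c from 305 ± 13 to 104 ± 2.2 CPM.

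Annexins and S100 proteins fell in 11 and rose in 6 of 20. Anxa8 rose from 165 ± 5.7 to 359.7 ± 7.3 CPM and Anxa4 fell from 418 ± 20.4 to 191 ± 3.1 CPM. The gut and kidney annexin Anxa13 had 108 to 122 counts a library in vector and 2 to 6 in mimetic, a ratio of 0.0494 (95% exact interval 0.026 to 0.0856). S100a4, often used as a mesenchymal marker, stood at 15.3, 13.9 and 14.4 CPM in the vector libraries and 17.1, 15.01 and 18.3 in the mimetic libraries, which overlapped, and was not called (log2 fold change 0.21, adjusted p = 0.0508). It was called under 6 alternatives, with adjusted p from 0.0104 to 0.0470.

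Transcription factors of the epithelial state split, and those of the mesenchymal state rose in part. Of 16 epithelial regulators, 7 fell and 6 rose: beside Hnf4a, the ETS factor Elf3 fell from 18.04 ± 2.9 to 6.09 ± 0.74 CPM and the splicing regulator Esrp2 from 49.5 ± 1.2 to 25.8 ± 0.68 CPM, while Klf4 rose from 45.8 ± 1.8 to 78.2 ± 5.6 CPM and Grhl3 8.08-fold. Of 18 mesenchymal factors, 8 rose and 1 fell, and 9 were not called (3 fell without vector replicate 3). Twist1 stood at 0.575, 0.646 and 0.264 CPM in the vector libraries and 4.19, 2.69 and 4.003 in the mimetic libraries, 7.40-fold higher (log2 fold change 2.89, SE 0.27, adjusted p = 1.64e-08), and Snai2 and Prrx1 rose 1.67-fold and 1.52-fold. Snai1 was not called (log2 fold change 0.11, adjusted p = 0.871), and Zeb2 rose 1.17-fold. The counts for mesenchymal factors include Zeb1 itself.

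The NuRD complex, which the series title names, changed in single subunits. Of 17 tested, 6 rose and 7 fell (median 0.03). Mta3 stood at 19.4, 18.5 and 19.97 CPM in the vector libraries and 43.98, 46.7 and 45.2 in the mimetic libraries, 2.35-fold higher (log2 fold change 1.23, SE 0.067, adjusted p = 2.61e-12). The helicase Chd3 fell from 388 ± 9.6 to 252 ± 8.4 CPM and Mbd2, on chromosome 18, 1.24-fold. Of 41 other Zeb1 cofactors and acetylation enzymes, 10 rose and 12 fell, none (0) by 2-fold. These counts lie near the shares of all tested genes, of which 28.6% rose and 30.9% fell. The acetyltransferase Kat2b fell 1.41-fold, the deacetylases Hdac6 and Sirt2 1.37-fold and 1.44-fold, and the corepressor Tle3 rose 1.44-fold.

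Cell cycle genes moved both ways. Of 44 tested, 19 rose and 14 fell (median 0.07). This and the other counts here stand beside 28.6% and 30.9% of all tested genes. Among genes of S phase entry, the cyclin Ccne2 rose from 31.5 ± 3.7 to 76.03 ± 4.3 CPM, Rrm2 from 129.6 ± 3.7 to 207 ± 6.7 CPM and Mcm7 1.38-fold. E2f8, a repressor of that programme, fell from 61.2 ± 2.7 to 29.3 ± 3.0 CPM, and the proliferation marker Mki67 1.41-fold. Of 32 genes listed as p53 targets and CDK inhibitors, 11 rose and 8 fell. Cdkn1b rose from 116 ± 3.7 to 193 ± 7.5 CPM, and Cdkn1a fell 1.69-fold. The cyclin Ccnd2, which is not a CDK inhibitor, fell from 393 ± 57 to 193 ± 12 CPM. Immediate early genes rose in 9 and fell in 2 of 25; Atf3 rose 2.46-fold, Fosl2 1.72-fold, Klf4 1.71-fold and Fosl1 1.70-fold. YAP and TEAD genes rose in 12 and fell in 8 of 22; the targets Ankrd1, Amotl2 and Ajuba rose 1.53-fold, 1.86-fold and 1.65-fold, and Ctgf fell 1.19-fold.

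**Figure D3:**
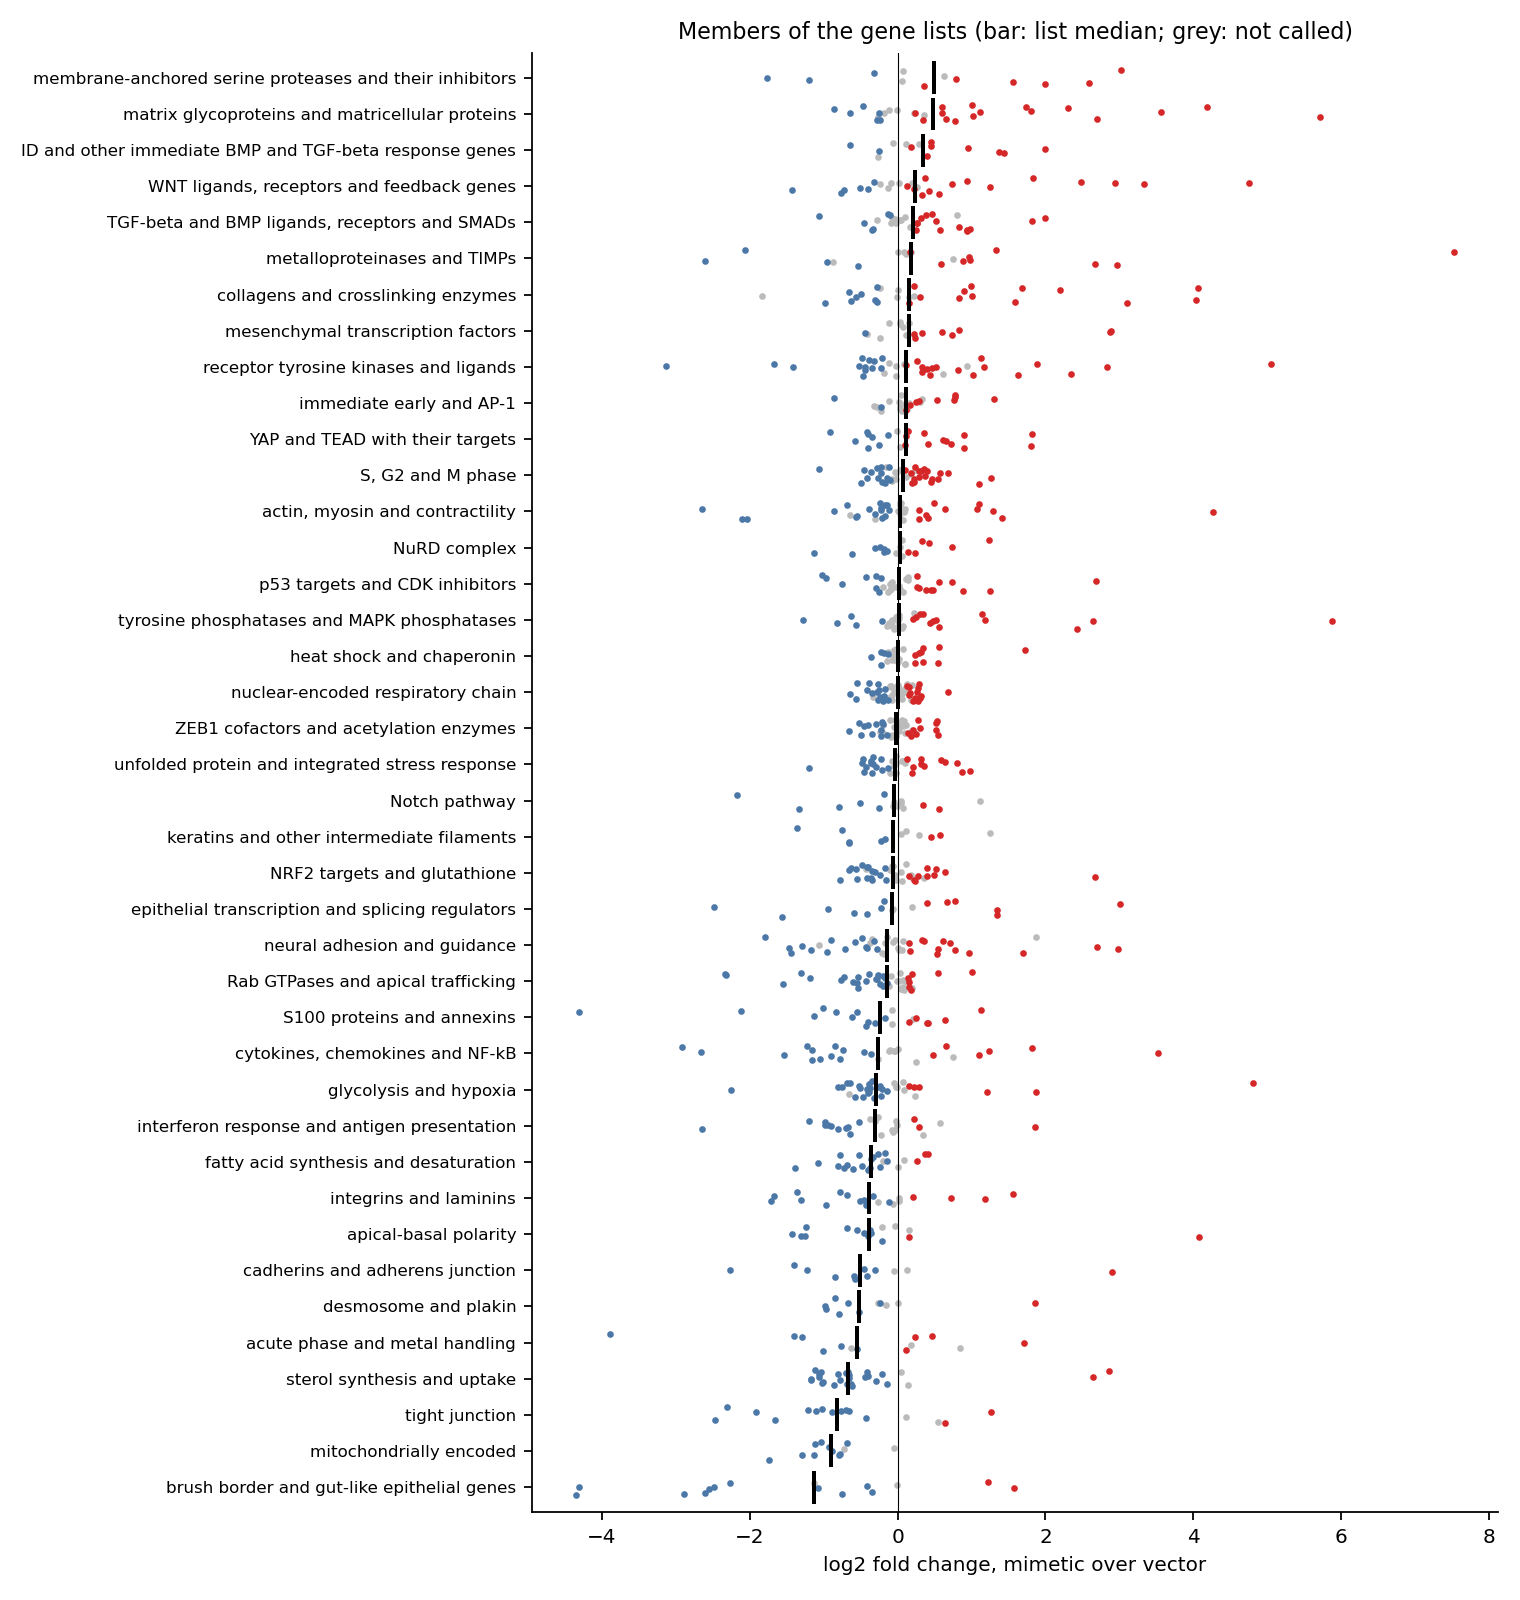
Each row is 1 gene list, cell type markers aside, and each point 1 member, placed by its fitted log2 fold change of mimetic over vector; red rose, blue fell, grey was not called, and the bar is the list's median. Lists are ordered by median, from the brush-border list (-1.14) at the bottom to the serine protease list (0.49) at the top, and most lists hold members on both sides of 0.

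Other large changes fell outside the lists. Thrombomodulin (Thbd, chromosome 2, 148404466 to 148408188), a thrombin receptor, had 1 to 3 counts a library in vector and 282 to 325 in mimetic, a ratio of 193 in CPM (95% exact interval 88.4 to 528, counting error only). The aminopeptidase Anpep had 4 to 6 and 282 to 463 counts, a ratio of 97.0 (58.6 to 174). The GTPase-activating protein Arhgap29 rose from 0.287 ± 0.20 to 18.7 ± 1.2 CPM, the DNA sensor cGAS (Mb21d1) from 0.227 ± 0.10 to 12.7 ± 0.65 CPM, the chondroitin sulfotransferase Chst11 from 0.378 ± 0.14 to 13.2 ± 1.1 CPM and sarcospan (Sspn) from 0.823 ± 0.16 to 20.8 ± 0.68 CPM. Obsl1, Mical1 and Fam149a, all under 1 CPM in vector, rose to 15.5, 10.4 and 13.2 CPM. Among falls, the proprotein convertase Pcsk6 went from 45.2 ± 1.9 to 3.75 ± 0.36 CPM, the neuronal pentraxin Nptx1 from 92.2 ± 4.6 to 11.5 ± 2.1 CPM, Ifi27l2b from 51.05 ± 2.0 to 6.28 ± 0.95 CPM and the Cdc42 exchange factor Fgd4 from 34.4 ± 3.0 to 4.54 ± 0.19 CPM. Dqx1, Bcas1 and Htatip2 fell 10.1-fold, 8.20-fold and 7.08-fold. Obsl1, Mical1, Vil1, Myo15b, Selenop and Lgals2 overlap other annotated genes (Tmem198, Smpd2, Usp37, Recql5, Ccdc152 and Cdc42ep1), and tags of such pairs may have been shared.

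A smaller set of genes set the mimetic line apart from all 3 other lines. A gene was counted here where mimetic differed from vector, WT and deficient in 1 direction, the largest of the 3 p-values being adjusted over all tested genes. Mimetic was highest in 108 genes (0.898% of those tested) and lowest in 147 (1.22%). With 1 mimetic library left out, these counts were 59 to 67 and 80 to 113. The water channel Aqp5 (chromosome 15, 99590782 to 99594829), a marker of alveolar type 1 and gland cells, stood at 5.35, 5.87 and 5.10 CPM in the vector libraries and 117, 111 and 113 in the mimetic libraries, 20.9-fold higher (log2 fold change 4.39, SE 0.078, adjusted p = 6.58e-20). WT and deficient had 34.1 and 44.6 CPM, so mimetic was 3.34-fold and 2.55-fold above them. The cytokine receptor Lifr stood at 12.01, 11.3 and 8.77 CPM in the vector libraries and 34.1, 34.2 and 32.9 in the mimetic libraries, against 15.3 in WT and 13.5 in deficient. Prl2c3, of a prolactin-related family with near-identical copies whose reads may be split, was at 10.4 CPM in mimetic and between 2.44 and 2.80 in the others. Id2 was at 62.2, against 33.9 and 34.8 in WT and deficient, and the retrotransposon-derived Peg10 at 27.1, against 2.81 and 14.1. Rasl11a and Scara5, a ferritin receptor, completed the highest genes with Timp3, Thbd and Nid1.

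At the low end of that set, 3 genes were enzymes of sterol synthesis: Mvd, Nsdhl and Tm7sf2. Mvd stood at 51.8, 48.95 and 57.02 CPM in the vector libraries and 27.2, 22.4 and 27.4 in the mimetic libraries, against 38.2 in WT and 41.2 in deficient, and Nsdhl at 41.2, 43.1 and 44.1 CPM in the vector libraries and 24.1, 24.7 and 26.1 in the mimetic libraries, against 38.02 and 40.5. Mimetic was 1.49-fold and 1.61-fold below WT and deficient for Mvd, and 1.52-fold and 1.62-fold for Nsdhl. The engulfment receptor Megf10 was at 12.7 CPM, against 69.4, 28.5 and 45.04 in vector, WT and deficient, and the Met-regulating Macc1 at 2.78, against 18.9, 4.69 and 6.20. The exchange factor Vav3 was at 7.93, against 18.5 and 11.9 in WT and deficient. Fgd3, Fgf11, Mfsd13a and Lpin1 made up the rest of the 10 lowest.

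**Figure D4:**
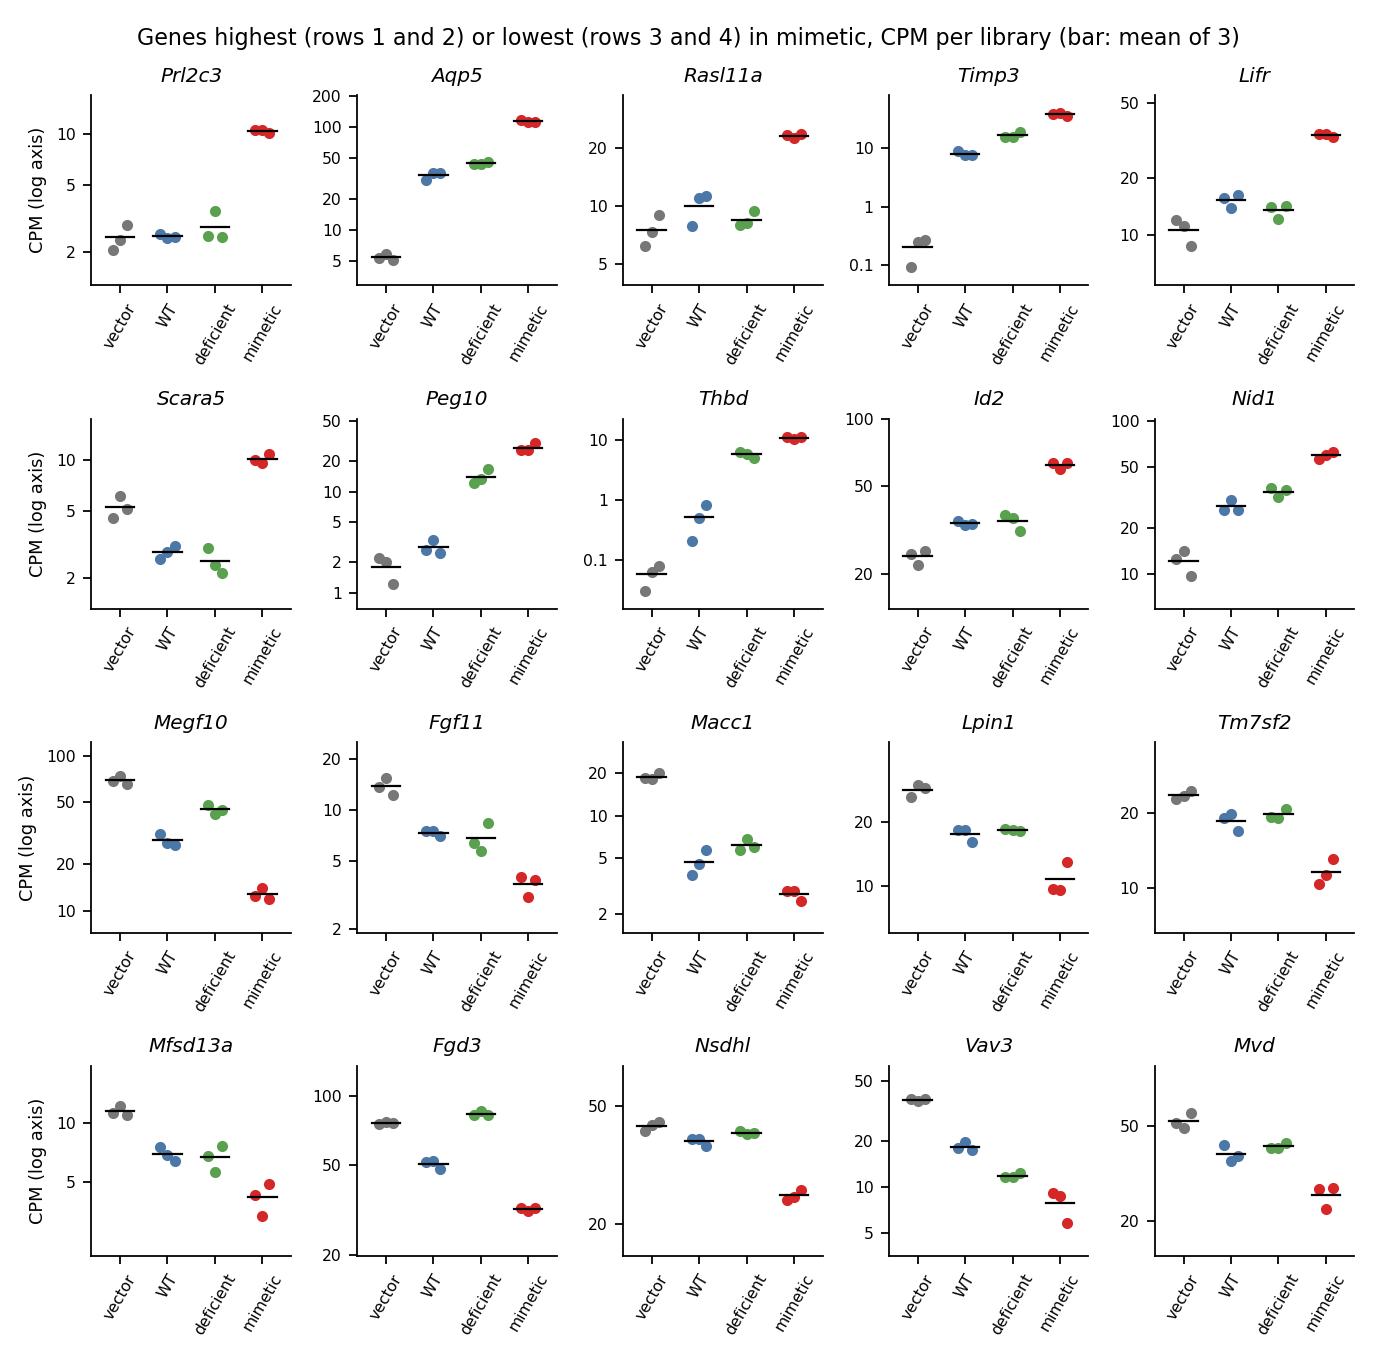
CPM on a log axis in the 4 lines for the 10 genes highest (upper rows) and the 10 lowest (lower rows) in mimetic, with 3 points per line and a bar at their mean. The genes were picked so that no mimetic library overlaps a library of another line. Prl2c3 lies at about 1 level in vector, WT and deficient, whereas Aqp5 and Timp3 step up from vector through both other Zeb1 lines.

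Mimetic also differed from both other Zeb1 lines more widely. Against WT, 2780 genes were higher (23.1%) and 2618 lower (21.8%), and against deficient 1510 were higher (12.6%) and 1789 lower (14.9%). Against the same vector libraries, WT had 31% of genes higher and 33.6% lower, and deficient 28.4% and 29.8%. Fgfr1 stood at 9.74 CPM in mimetic, 10.9 in WT and 3.32 in deficient, and was 2.93-fold above deficient (adjusted p = 1.43e-08), while its difference from WT was -0.16 (adjusted p = 0.283). Ptpn13 lay nearer to deficient, at 131 against 175 CPM and 24.8 in WT. Atoh8 was 2.53-fold above deficient (adjusted p = 5.31e-11), and Csf2 5.98-fold below it (adjusted p = 7.31e-13).

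Calls were uneven over the chromosomes. Over genes of at least 5 CPM, the median log2 fold change was -0.30 on chromosome 18, where 8.54% of 246 genes rose and 67.1% fell, and 0.28 on chromosome 5, where 66.4% of 639 rose and 11.4% fell. Chromosomes 11, 16 and 7 had medians of -0.19, -0.18 and -0.17, and chromosomes 14 and 12 had 0.13 and 0.15. The WT and deficient lines, set against the same vector libraries, had -0.27 and -0.27 on chromosome 18 and 0.14 and 0.25 on chromosome 5. Named genes on chromosome 18 include Zeb1 and Pard6g, which rose, and Cdh2, Ctnna1, Mbd2, Megf10 and Cd14, which fell. Those on chromosome 5 include Ptpn13, Cldn3, Cldn12, Fgfr3, Kdr, Cxcl3 and Mcm7, which rose, and Spp1 and Tgfbr3, which fell. Those on chromosome 11 include Jup, Itgb4 and Krt19, which fell, and Slc16a3 and Igfbp3, which rose. Changes such as that of Ptpn13 (5.88) are far larger than its chromosome's median, whereas that of Mbd2 (-0.31) is close to it. The cause of the chromosome medians was not tested.

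**Figure D5:**
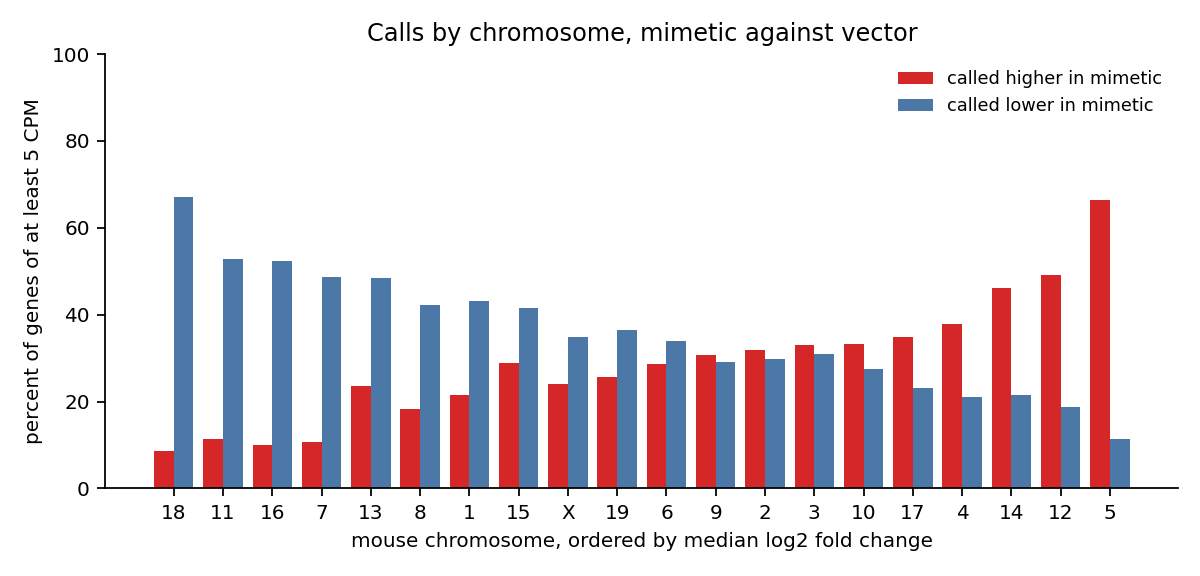
Bars give the percent of genes of at least 5 CPM that rose (red) or fell (blue) in mimetic on each mouse chromosome, ordered by the median log2 fold change. Chromosome 18 (67.1% fell) and chromosome 5 (66.4% rose) stand at the ends.

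Markers of other cell types were few. Of 12 listed fibroblast markers, 5 were tested and none (0) was called. With scaling by library size, 2 were higher, and 1 was higher with RLE scaling, limma-voom or the filter of 5 CPM (1 tested). Leaving out mimetic replicate 2, vector replicate 1 or vector replicate 3 also gave 1 higher. The summed level of these markers was 16.4 to 18.2 CPM in vector and 17.5 to 21.1 in mimetic. Of 12 leukocyte markers, 2 were tested and both fell, Cd68 1.77-fold and Cd14 2.81-fold. Their sum was 51.7 to 65.5 CPM in vector and 21.5 to 22.3 in mimetic. Of 10 endothelial markers, 4 were tested; Kdr and Egfl7 rose 5.09-fold and 1.51-fold, from 0.478 and 2.98 CPM, Vwf was called higher at 1 to 14 counts a library in vector and 13 to 16 in mimetic, and Pecam1 was not called. Their sum was 3.01 to 4.51 CPM in vector and 6.68 to 9.25 in mimetic. Their part in the results was not tested. As a check of the labelled epithelial type, Cdh1, Krt8 and Krt18 stood at 670.1, 3329 and 3147 CPM in vector. The mesenchymal filament Vim stood at 5356 CPM in the same libraries, so these levels alone do not settle the type. Of 20 lung epithelial markers, 5 were tested; Aqp5 and Rtkn2 rose, Abca3 fell, and Lamp3 and Ager were not called. The other listed markers are not analysed here.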

How the data were processed

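RNA was measured in 12 libraries of 4 lines with a QuantSeq 3′ kit (FWD) and paired-end HiSeq sequencing, per the labels. The deposited values are raw counts per gene. The submitters' processing notes name STAR and mm10; STAR's version, the counter, annotation and strand setting were not given in the sources used here. 3′ tags miss changes elsewhere in a transcript, and overlapping genes may share tags. Every column was matched to a sample by its name, and 0 columns of other samples were found.

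Counts were fitted with edgeR 4.0.16 (limma 3.58.1, R 4.3.3): TMM scaling, filterByExpr, 1 coefficient per line over 12 libraries, quasi-likelihood F test, two-sided, Benjamini-Hochberg adjustment over 12027 genes, calls at adjusted p under 0.05. Folds are edgeR's fitted folds and levels are CPM with TMM scaling; values after ± are SD over 3 libraries. Exact permutation tests served the shares of counts. The fit was tested on simulated data. Alternatives were RLE and library-size scaling, other filters, the 6 libraries alone, a replicate block, each replicate left out, limma-voom, DESeq2 1.42.0, and a test against a 2-fold minimum (glmTreat). Replicate numbers were not taken as pairs, since no label pairs them. Deviations from the line's mean (log2 CPM, prior count 2) were also correlated between same-numbered vector and mimetic libraries. The values were -0.062, 0.011 and -0.083. Subtracting the mean of 3 libraries constrains such values, so they do not settle the pairing. Genes with at most 10 counts in every library of a line have ratios of CPM with 95% exact (Clopper-Pearson) intervals, for counting error only.

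Gene positions are from GENCODE M21 (GRCm38) and promoters from RefSeq GRCm38.p6. The members, lists and tests were chosen with earlier results of these data known. Genes were named by rule: Zeb1, Cdh1, Vim and Crb3, up to 4 members of each list with the smallest adjusted p and at least 1 CPM in the higher line, and the 15 largest changes per direction and the 10 genes per direction most apart in mimetic, both with at least 10 CPM, no overlap of replicates and a gene name other than a clone's. The following were named after their values were seen: Abca1, Adamts1, Anxa13, C3, Car12, Ccl20, Cd14, Cd68, Cdh2, Cdkn1a, Cldn3, Col4a1, Ctgf, Cxcl3, Dhcr7, Egfl7, Egfr, Ephb3, Erbb2, Fdps, Fgf2, Fgfr3, Fn1, Gm10800, Grhl3, Id1, Id3, Il33, Itga5, Itga6, Itgav, Itgb6, Itgb8, Kdr, Lama5, Lamp3, Marveld2, Mki67, Mmp15, Muc4, Myh10, Myh14, Myo1a, Nectin1, Ocln, Pecam1, Rnf43, Ror1, Snai1, Spink4, Spint1, Spp1, Srebf2, Tgfb1, Tgfb2, Tgfbr3, Thbs2, Tjp3, Tnc, Vwf and Zeb2. A few genes that the rule names are not reported here.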

Additional observations from a re-analysis of the deposited data

Results flagged for a closer look

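For 10 named genes the mimetic line and another Zeb1 line moved in opposite directions from the same vector libraries, each change was called, and the 2 lines differed from each other by the test of that difference. All differences are log2 values tested with edgeR's quasi-likelihood fit over 3 libraries a line, and the vector libraries are shared by every change named.

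Mimetic lay below deficient for 7 of them. They were picked for their opposite directions and stand for no gene group. The difference was -1.58 for the laminin chain Lamb3 (adjusted p = 1.28e-13; mimetic -1.31 and deficient 0.27 from vector), -1.22 for desmoplakin Dsp (adjusted p = 4.7e-13; -0.84 and 0.38), -0.99 for the claudin Cldn6 (adjusted p = 1.28e-13; -0.77 and 0.23) and -1.41 for Crb3 (adjusted p = 3.05e-05; -0.55 and 0.86), whose call against vector is lost under 5 alternatives. Lower also were the WNT ligand Wnt7b by -1.02 (adjusted p = 2.01e-11; -0.77 and 0.25), the transcription factor Bhlhe40 by -0.86 (adjusted p = 1.23e-10; -0.64 and 0.22) and the exchange factor Fgd3 by -1.39 (adjusted p = 1.28e-13; -1.26 and 0.14). The WT line lay below mimetic for Lamb3 (25.7 against 61.5 CPM), Dsp (3.98 against 61.7), Crb3 (0.286 against 1.89) and Bhlhe40 (68.2 against 79.3). It lay above mimetic for Wnt7b (91.8 against 83.2 CPM) and Fgd3, and Cldn6 did not differ (adjusted p = 0.161).

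Mimetic was higher in Scara5, by 1.85 against WT (adjusted p = 6.67e-09; mimetic 0.96 and WT -0.89 from vector) and by 2.03 against deficient (adjusted p = 3.93e-09; deficient -1.07). Itih2, a hyaluronan-binding inhibitor subunit, differed from WT by 3.15 (adjusted p = 4.99e-08; 1.71 and -1.44), from a vector level of 1.32 CPM. Vim differed from WT by -0.30 (adjusted p = 1.9e-05; -0.17 and 0.13), and its fall against vector is lost with scaling by library size.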

How the results depend on the processing

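Calls against vector, 3438 higher and 3720 lower, stayed within 1.5 times under every alternative run: 4334 and 3004 with scaling by library size only, 3502 and 3748 with the replicate block, and 3101 to 3460 and 3398 to 3731 with 1 library left out. The block changed no call of a named gene. At 2-fold or more, the 658 higher and 468 lower genes became 305 and 300 with at least 5 CPM in at least 3 libraries, which tests fewer genes, and 370 and 244 with a test against a 2-fold minimum (glmTreat). Genes highest in mimetic went from 108 to 59 to 67 with 1 mimetic library left out, and those lowest from 147 to 80, 88 and 113 (without mimetic replicate 1, 2 and 3) and to 84 with scaling by library size only. The cause was not tested. No named gene reversed its direction. Named genes whose call changed were Vim, Crb3 and S100a4.

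Scaling by library size only moved the median of all genes from -0.004 to 0.069. With it, lists with medians near 0 (keratins, epithelial regulators, Notch, stress response, NRF2, respiratory chain, Zeb1 cofactors, fibroblast markers) changed the sign of their median. The receptor list's median of 0.12 became -0.002 with the filter of 5 CPM. Depth limits the genes named with vector counts under 10, and genes with 0 counts in a library are not analysed here.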
